A study of Mus musculus with 4 samples.

Results

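The genes followed here encode the immunoproteasome and the machinery that loads peptides onto major histocompatibility complex (MHC) class I molecules. They were chosen by symbol as Psmb8, Psmb9, Psmb10, Psme1, Psme2, Tap1, Tap2, Tapbp, Tapbpl and Erap1, which are 10 of the 31053 genes in the count tables, and each symbol had 1 row. The measurements are unique molecular identifier (UMI) counts, in which each UMI stands for 1 captured mRNA molecule, read near the 3′ end of the transcript in single mouse islet cells.

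Cells continuously sample their own proteins by cutting them into peptides in the proteasome and showing some of these on MHC class I molecules to cytotoxic T cells. When inflammatory cytokines act on a cell, the catalytic subunits of newly made proteasomes are exchanged for the immune subunits encoded by Psmb8, Psmb9 and Psmb10, and a ring made from the products of Psme1 and Psme2 (PA28α and PA28β) can cap the particle and speed peptide release. The products of Tap1 and Tap2 pump peptides into the endoplasmic reticulum, where Erap1 trims them and tapasin (Tapbp) and its relative TAPBPR (Tapbpl) help class I molecules to take up well-fitting ones. IFN-γ is the classical inducer of this route, and display of peptides by β-cells is what autoreactive T cells recognise in autoimmune diabetes.

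The islets came from C57BL/6 mice, named C57BL6/J in the paper, and were pooled from several adult male animals before they were divided. They were left untreated or were exposed in culture to IL-1β, to IFN-γ or to both cytokines for 6 h. After that they were dissociated and captured in droplets. No altered allele is named for any group, and the labels give no time for the untreated islets. Each condition is 1 library, so differences between conditions could not be checked against replicates or tested. All intervals are 95% and cover counting error only.

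The untreated library held 3486 barcodes, that with IL-1β 2911, that with IFN-γ 3694 and the combined one 2480, of which 1521, 2018, 2122 and 1810 passed the limits of 200 to 4000 genes per cell and 12% mitochondrial UMIs. The median depth of the kept cells was 15454, 7462.5, 9615 and 11123.5 UMIs, so the untreated cells were the most deeply sampled, and the upper gene limit removed 843 untreated barcodes against 146, 345 and 222 of the others. Any pair of libraries shared 1 to 4 barcodes. Levels are therefore given as UMIs per 1000000 UMIs of the cell class (CPM), and shares of cells with a UMI were taken after each cell was thinned to 4000 UMIs.

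Endocrine cells were named by the hormone that led their UMIs and other cells by at least 3 marker genes. This gave 5002 β-like cells (1200, 1193, 1324 and 1285 for untreated islets, IL-1β alone, IFN-γ alone and the combination), 857 α-like cells (89, 326, 282 and 160), 476 δ-like cells (54, 153, 172 and 97) and 163 PP-like cells, with 138 macrophage-like and 130 endothelial-like cells. A further 356 cells with mixed hormones, 138 without enough markers and 25 endocrine cells with markers of another type were left out. Most markers that did not enter the naming differed between the classes. Nkx6-1, a β-cell transcription factor, had a UMI in 68.9% of β-like and 10.3% of α-like cells, Irx2 in 63.1% of α-like and 1.88% of β-like cells, and Hhex in 56.5% of δ-like and 0.42% of β-like cells. Iapp, made in large amounts by β-cells, did not separate them, with a UMI in 99.98% of β-like and 97.3% of α-like cells. The clusters gave other numbers of cells for some classes. In a clustering of the same cells, 181 cells of the combined library formed a somatostatin cluster with a median Sst share of 2.33% of UMIs, close to the 2% needed for the name, and the clusters gave 207 δ-like cells in that library in place of 97. The PP-like cluster held 104 untreated cells and 18 of the combined library, in place of 29 and 45. Cells of 1 class also sat in different clusters in different libraries. The 2 largest β-like clusters of each library held 704 and 299 untreated cells, 597 and 261 with IL-1β, 839 and 170 with IFN-γ and 811 and 216 of the combined library, and each of these 8 clusters was mostly of 1 library. Of the α-like clusters, 1 held 82 untreated and 298 IFN-γ cells, another 380 IL-1β cells and the last 155 cells of the combined library. Within the β-like class the comparisons are between cells that mostly lay in different clusters. Untreated and IFN-γ cells mostly shared 1 cluster in the α-like and in the δ-like class, the δ-like cluster with 69 and 188 of them. The cells with IL-1β and with both cytokines mostly lay in other clusters in these classes.

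Of the 10 genes, 5 lie on chromosome 17 (GRCm38, GENCODE M21). Psmb9 (chr17:34181987-34187764, minus strand), Tap1 (chr17:34187553-34197225, plus strand), Psmb8 (chr17:34197721-34201454, plus strand) and Tap2 (chr17:34203527-34216321, plus strand) share 34335 bases of the MHC class II region, and Tapbp lies at chr17:33915899-33929292. Psme1 (chr14:55578123-55581529) and Psme2 (chr14:55587441-55591113) are neighbours on opposite strands, 5911 bases apart. Psmb10 (chr8:105935735-105938444), Tapbpl (chr6:125223933-125231860) and Erap1 (chr13:74639568-74693201) stand alone. Annotated genes overlap 9 of the 10, Psme2 being the exception. The annotated bodies of Psmb9 and Tap1 overlap at their 5′ ends, Psme1 overlaps Emc9, Tapbpl overlaps Vamp1 and Erap1 overlaps Cast, each on the opposite strand, while Tapbp overlaps Zbtb22 on its own strand, and the sources used here do not state whether counting used strand.

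Promoter windows from RefSeq (GRCm38.p6, 250 bases before to 50 after the annotated start) were available for 8 of the 10 genes and were searched on both strands for the letters TTCNNNGAA, the core of the gamma-activated site, and GAAANNGAA, the core bound by IRF factors. These letters occur in 8.3% and 8.56% of all windows, so a match is a description of the sequence and does not show that a factor binds. The 3 stretches that held a match are printed from the plus strand, with the matching letters in capitals. That of Psmb8 (chr17:34198088-34198117) holds the letters of the gamma-activated site 97 to 89 bases before the RefSeq start, and those of Psme1 (chr14:55578494-55578523) and Erap1 (chr13:74639837-74639866) hold the IRF letters on the minus strand, in Erap1 as 2 overlapping copies. The Psme1 match lies 10 to 18 bases after the RefSeq start, and the Erap1 copies run from 9 bases before it to 5 after. All 3 stretches lie inside the GENCODE gene bodies given above.
Psmb8: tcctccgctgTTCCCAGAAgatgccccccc
Psme1: gagctgtgctTTCGCTTTCccttcccgctg
Erap1: gtccaccTTCACTTTCACTTTCggtcccgg
The windows of Psmb9, Psmb10, Psme2, Tap1 and Tapbp held neither, and no window held the κB letters found in 4.51% of all windows. The promoters of Tap2 and Tapbpl were not analysed here.

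In untreated β-like cells all 10 genes were detected. The whole set summed to 488 CPM, from 4.73 CPM for Tap1 to 126 CPM for Tapbp, and these levels belong to 3′ counts and are not a ranking of transcript numbers. With IL-1β the sum was 1317 CPM, with IFN-γ it was 2045 CPM and with both cytokines 2819 CPM. The counting intervals of the 4 sums did not overlap.

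In β-like cells the immune catalytic subunits were all higher with either cytokine, and by more with IFN-γ. Psmb8, whose product (LMP7) carries the chymotrypsin-like activity, measured 38.1 CPM in untreated β-like cells, 118 under IL-1β, 335 under IFN-γ and 397 under both. Psmb9 (LMP2) measured 18.5, 29.4, 219 and 241 CPM in the same order. Psmb10 (MECL-1) measured 46.4, 141, 269 and 363 CPM. Against the untreated library Psmb8 and Psmb10 were 3.10-fold [2.83–3.40] and 3.05-fold [2.80–3.31] higher with IL-1β alone, whereas Psmb9 was 1.59-fold [1.36–1.86] higher and stayed under 2-fold. The median ratio over all genes tested was 1.36 with IL-1β, so the Psmb9 ratio was little above it. With IFN-γ alone the ratios were 8.81 for Psmb8, 11.8 for Psmb9 and 5.81 for Psmb10, and with both cytokines 10.4, 13 and 7.83. For all 3 subunits the order of the libraries was untreated, IL-1β, IFN-γ, both, with no overlap of neighbouring counting intervals.

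The PA28 activator followed another order. Psme1 measured 68.4 CPM untreated, 188 under IL-1β, 204 under IFN-γ and 256 under both, so that the single cytokines differed little (IL-1β to IFN-γ ratio 0.92 [0.868–0.975]). Psme2 measured 108, 362, 267 and 510 CPM. It was the only one of the 10 genes with a higher CPM under IL-1β than under IFN-γ in β-like cells (ratio 1.36 [1.30–1.42]). Reads of Psme2 may be shared with its processed copy Psme2b on chromosome 11, which was listed at 1.89, 6.14, 12.9 and 23.0 CPM in the 4 libraries, small beside Psme2 in each.

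The transporter genes held, in Tap1, both the largest ratio to untreated in β-like cells and the lowest starting level. Tap1 measured 4.73 CPM in untreated β-like cells (95 UMIs over 1200 cells), 15.1 under IL-1β, 162 under IFN-γ and 219 under both. Tap2, its partner subunit, measured 18.9, 47.9, 99.6 and 174 CPM. The ratio to untreated with both cytokines was 46.3 [37.8–57.4] for Tap1 and 9.20 [8.26–10.3] for Tap2. IFN-γ alone already gave a Tap1 ratio of 34.1 [27.8–42.4], while IL-1β alone gave 3.20 [2.46–4.18], which was 2.03 when each cell was thinned to 4000 UMIs. Tap2 was 2.53-fold higher with IL-1β and 5.26-fold higher with IFN-γ.

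With IFN-γ and with both cytokines the loading and trimming genes had lower ratios to untreated than the transporter genes, whereas Tapbpl had the highest ratio of the 10 with IL-1β. Tapbp measured 126, 245, 292 and 402 CPM, and its ratio to untreated was 1.95 [1.84–2.06] under IL-1β, 2.33 under IFN-γ and 3.20 under both. Tapbpl measured 26.8, 94.1, 109 and 185 CPM, which is a ratio of 3.51, 4.05 and 6.91. Both peptide editors were thus highest in the combined library. Erap1, the aminopeptidase that trims precursor peptides, measured 33.1, 77.5, 89.8 and 71.2 CPM, and was the only gene of the set whose level in β-like cells with both cytokines was under that with IFN-γ alone (ratio 0.792 [0.731–0.859]).

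**Figure D1:**
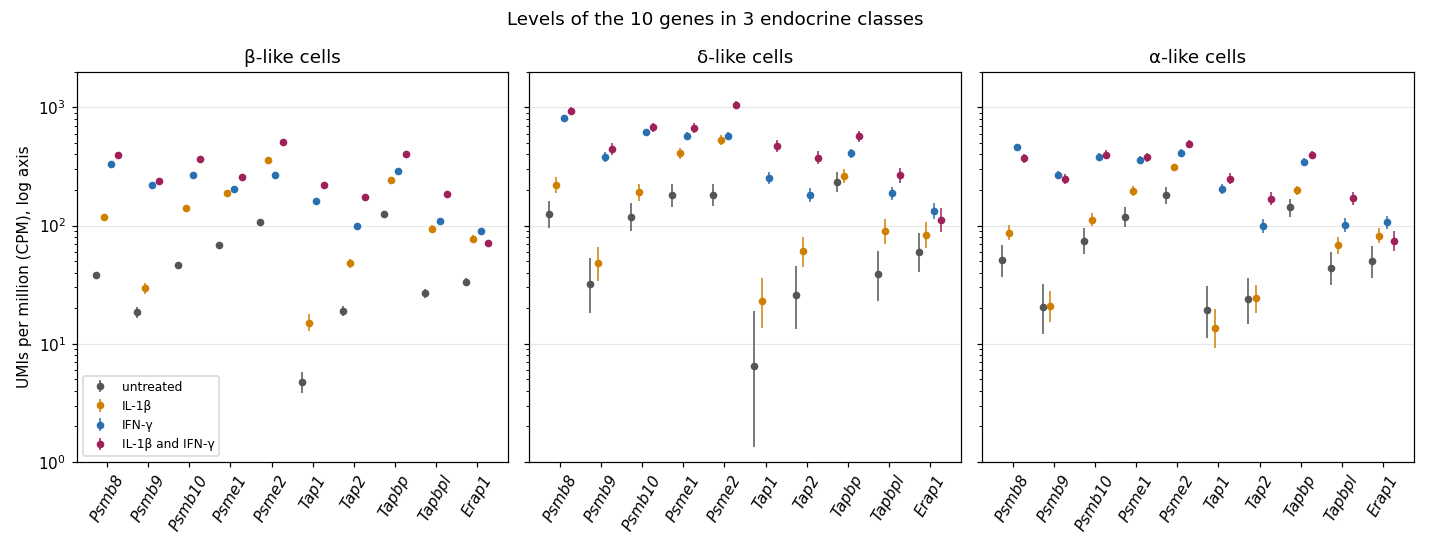
Levels of the 10 genes in CPM (log axis) in β-like, δ-like and α-like cells, 1 panel for each class; points are the 4 libraries and bars the 95% counting interval. In β-like cells Tap1 runs from 4.73 CPM in the untreated library to 219 CPM with both cytokines, and Erap1 is the gene whose combined point lies below its IFN-γ point.

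Counted at a ratio of at least 2, 8 of the 10 genes were higher under IL-1β, 10 under IFN-γ and 10 under both in β-like cells, and none was 2-fold lower. Of all 7485 genes of at least 10 CPM in this class, 17.9% were at least 2-fold higher under IL-1β, 4.68% under IFN-γ and 11.2% under both. The median ratio of the 10 genes was 2.89, 4.65 and 7.37, beside 1.36, 1.26 and 1.08 over all genes tested. The all-gene median with IL-1β was a shift of 0.45 on the log2 scale, and hormone genes took 42.3% of the UMIs of untreated β-like cells but 21.9%, 28.4% and 33.5% under IL-1β, IFN-γ and the combination. Relative to the all-gene median, the median of the 10 genes was 2.13, 3.68 and 6.83. With the hormone genes left out of the totals 6, 8 and 9 genes stayed at least 2-fold higher, beside 6.97%, 2.65% and 8.24% of all genes, Tap2 and Erap1 being those lost with IL-1β, Tapbp (1.88) and Psme2 (just under 2) with IFN-γ and Erap1 with both.

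In δ-like cells, the somatostatin cells, the untreated level of the set was higher than in β-like cells, at 1007 CPM, and it was 1927 CPM under IL-1β, 4136 under IFN-γ and 5588 under both. Psmb8 measured 125, 221, 819 and 935 CPM and Psme2 183, 534, 575 and 1058 CPM in the 4 libraries. At least 2-fold higher were 5 of the 10 genes with IL-1β (background 11.5%), 9 with IFN-γ (background 6.06%) and 9 with both (background 12.2%). The 5 with IL-1β were both activator genes, Psme1 and Psme2 (2.26 and 2.92), both transporter genes and Tapbpl (2.32), and none of the catalytic subunits, of which Psmb8 was 1.77-fold [1.30–2.42] higher. When Pyy was counted beside Ppy as a PP hormone, Psmb8 (2.48), Psmb9 (2.31) and Psmb10 (2.19) passed 2-fold and Tap1 was under it (1.71). The median ratio of the 10 genes was 2.01, 5.03 and 6.31, beside 1.01, 0.986 and 0.88 over all genes tested. The count with IL-1β was 3 with no upper gene limit, 3 after thinning 2 with cells named by clusters and 7 with Pyy counted beside Ppy.

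Tap1 had 3 UMIs in the 54 untreated δ-like cells (6.47 CPM) and measured 22.8, 253 and 475 CPM under IL-1β, IFN-γ and the combination, so its ratio of 73.4 with both cytokines has a wide counting interval of 24.9 to 358. When Pyy was counted beside Ppy as a PP hormone, which left 25 untreated δ-like cells, the ratio was 33.5. Tapbp was under 2-fold with IFN-γ (1.74 [1.41–2.16]) and Erap1 with both cytokines (1.86 [1.19–3]), but Tapbp was 2.02 with no upper gene limit and 2.06 after thinning, and Erap1 was 2.14 after thinning and 2.03 with the mean over cells.

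In α-like cells, the glucagon cells, none of the 10 genes reached 2-fold with IL-1β alone, where 8.3% of 8108 genes did, while 10 did with IFN-γ (background 5.55%) and 9 with both cytokines (background 9.57%). Erap1, at 2.14 with IFN-γ, was 1.93 with cells named by clusters and 1.99 with the hormone genes left out of the totals, which makes 9. The set summed to 724 CPM untreated, 1115 under IL-1β, 2746 under IFN-γ and 2952 under both. Of the IL-1β ratios 7 lay between 1.40 and 1.72, the highest being Psme2 (181 and 311 CPM). Psmb9 (20.3 and 21.0 CPM) and Tap2 (23.7 and 24.2 CPM) had nearly the same level in the untreated and IL-1β libraries, though after thinning their ratios were 1.71 and 2.05, and Tap1 was lower with IL-1β (19.2 and 13.7 CPM, ratio 0.713 [0.381–1.38]). The median ratio of the 10 genes was 1.52, 3.61 and 4.60 under IL-1β, IFN-γ and the combination, beside 0.972, 1.07 and 0.90 over all genes tested. After thinning to 4000 UMIs 2 genes passed 2-fold with IL-1β, Tap2 and Erap1 (2.46).

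With IFN-γ the α-like levels were above the β-like ones for every gene of the set except Tap2 and Tapbpl. These levels have hormone UMIs in the totals, which were 28.4% of β-like and 18.0% of α-like UMIs with IFN-γ. With the hormone genes left out, the set summed to 2858 CPM in β-like and 3348 CPM in α-like cells. Tap2 measured 99.3 CPM in α-like and 99.6 CPM in β-like cells, and Tapbpl 101 and 109 CPM. Psmb9 measured 269 CPM (ratio 13.2 [8.29–22.4]), Tap1 204 CPM (10.6 [6.55–18.4]) and Psmb8 464 CPM (9.12 [6.77–12.6]). The Tap1 ratio in α-like cells was thus under the 34.1 of β-like cells, and the untreated α-like level of Tap1, 17 UMIs in 89 cells, held 5 UMIs from 1 cell. With both cytokines Erap1 alone was under 2-fold (1.49 [1.04–2.17]), and it was 2.24 after thinning.

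**Figure D2:**
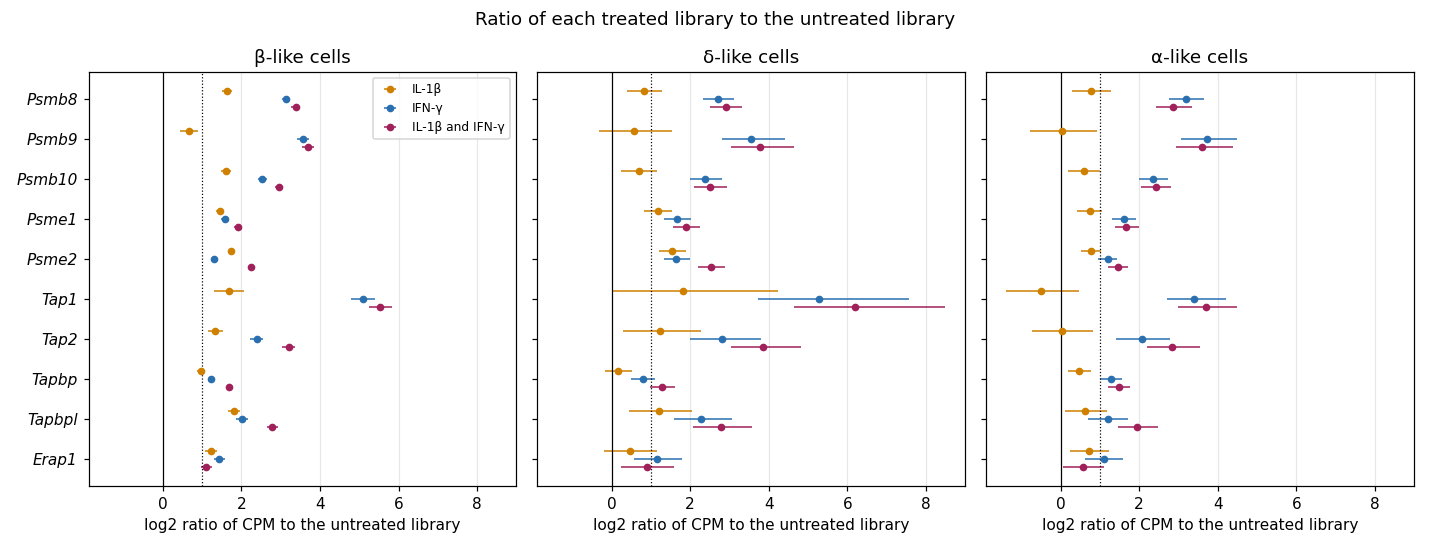
Ratio of CPM to the untreated library (log axis) for each of the 10 genes in β-like, δ-like and α-like cells under IL-1β, IFN-γ and the combination; bars are 95% counting intervals and lines mark ratios of 1 and 2. All 10 α-like points with IL-1β lie under 2, and Tap1 has the highest ratio with both cytokines in each class.

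Adding IL-1β to IFN-γ had different outcomes for different genes. In β-like cells 9 of the 10 genes were higher with both cytokines than with IFN-γ alone, with a median ratio of 1.35, from 1.10 for Psmb9 to 1.91 [1.84–1.99] for Psme2, followed by Tap2 (1.75) and Tapbpl (1.71). Of all genes tested in this class 32.8% were higher with both, with a median ratio of 0.854. In δ-like cells 9 genes were higher, led by Tap2 (2.05 [1.71–2.47]) and Tap1 (1.88), beside 42.3% of all genes. Among these 9 the interval of Psmb10 (1.10 [0.971–1.23]) includes 1. In α-like cells 7 were higher, led by Tap2 (1.70 [1.41–2.05]) and Tapbpl (1.68), beside 34.7% of all genes, and the intervals of 2 of the 7, Psmb10 (1.04 [0.935–1.16]) and Psme1 (1.05 [0.943–1.18]), include 1.

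Erap1 was lower with both cytokines than with IFN-γ alone in all 3 classes, at a ratio of 0.792 in β-like, 0.840 [0.628–1.11] in δ-like and 0.696 [0.548–0.879] in α-like cells. Psmb8 was also lower in α-like cells (464 CPM with IFN-γ and 370 with both, ratio 0.798 [0.718–0.887]), where its ratio in β-like cells was 1.18 and in δ-like cells 1.14. Psmb9 was at 0.924 [0.808–1.06] in α-like cells. Over all genes tested the median of this ratio was 0.896 in δ-like and 0.846 in α-like cells.

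On the log2 scale the combined ratio can be set beside the sum of the single ratios, which share the untreated library. In β-like cells the combined value was under that sum for all 10 genes, by a median of 1.08 and from 0.50 for Tapbp to 1.56 for Erap1. It was also under the sum for 87.2% of all genes tested, whose median difference was -0.69. In δ-like and α-like cells 59.2% and 62.4% of all genes were under the sum. In α-like cells it was above the sum for 3 genes, Tap1 (by 0.78), Tap2 (by 0.74) and Tapbpl (by 0.12), with 5 of the 17 untreated Tap1 UMIs from 1 cell, and in δ-like cells for Tapbp alone (by 0.31). The sum moves with the scaling. With the hormone genes left out of the totals, an alternative added after the data were seen, 7 of the 10 genes in β-like cells were under the sum, the median difference was -0.54 (all genes -0.15), and Psmb9 (0.012), Tap2 (0.011) and Tapbp (0.038) were slightly above it. The α-like excess of Tap1 was 0.077 with Pyy counted beside Ppy and 1.61 with the mean over cells, and after thinning Tap1 alone was above the sum there (1.21), Tap2 being at -0.47 and Tapbpl at -0.11. In δ-like cells Tap1 was also above the sum with Pyy counted beside Ppy (0.18) and Tap2 with no upper gene limit (0.070).

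Each immune subunit takes the place of a constitutive one, so the UMIs of the 2 genes of a pair were set against each other. Psmb8 made up 23.2% of the UMIs of Psmb8 and Psmb5 in untreated β-like cells, 52.3% under IL-1β, 73.6% under IFN-γ and 73.5% under both. Psmb9 made up 12.9%, 19.7%, 63.2% and 60.8% of its pair with Psmb6. Psmb10 made up 39.2%, 65.8%, 79.6% and 80.0% of its pair with Psmb7. The single-cytokine libraries therefore differed more for Psmb9 than for the other subunits, and the combined library did not exceed IFN-γ alone by more than the counting interval in any of the 3 pairs.

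In β-like cells the constitutive genes were each under 2-fold from untreated. Psmb5 measured 126, 108, 120 and 143 CPM, Psmb6 125, 120, 127 and 155 CPM, and Psmb7 71.9, 73.4, 69.2 and 90.7 CPM in β-like cells, and with both cytokines they were 1.13, 1.24 and 1.26 times the untreated level. With IL-1β the ratios of Psmb5, Psmb6 and Psmb7 were 0.851, 0.958 and 1.02, and 0.629, 0.708 and 0.755 with the hormone genes left out of the totals. The shares of a pair do not depend on the totals. In δ-like cells Psmb8 made up 34.7%, 56.9%, 83.2% and 83.1% of its pair and in α-like cells 15.2%, 36.5%, 71.1% and 67.6%. In α-like cells the constitutive genes were all lower with IL-1β than untreated. Untreated and with IL-1β, Psmb5 measured 284 and 152 CPM, Psmb6 255 and 153 CPM and Psmb7 145 and 76.3 CPM. The higher Psmb8 share there thus goes with a lower Psmb5 as well as a higher Psmb8 (50.9 and 87.2 CPM). Macrophage-like cells already held 49.1% Psmb8 without cytokines and 52.7% with IL-1β, then 80.7% [76.8–84.1] with IFN-γ and 67.9% [63.4–72.2] with both. Psmb5 measured 276 CPM in these cells with IFN-γ and 536 CPM with both.

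**Figure D3:**
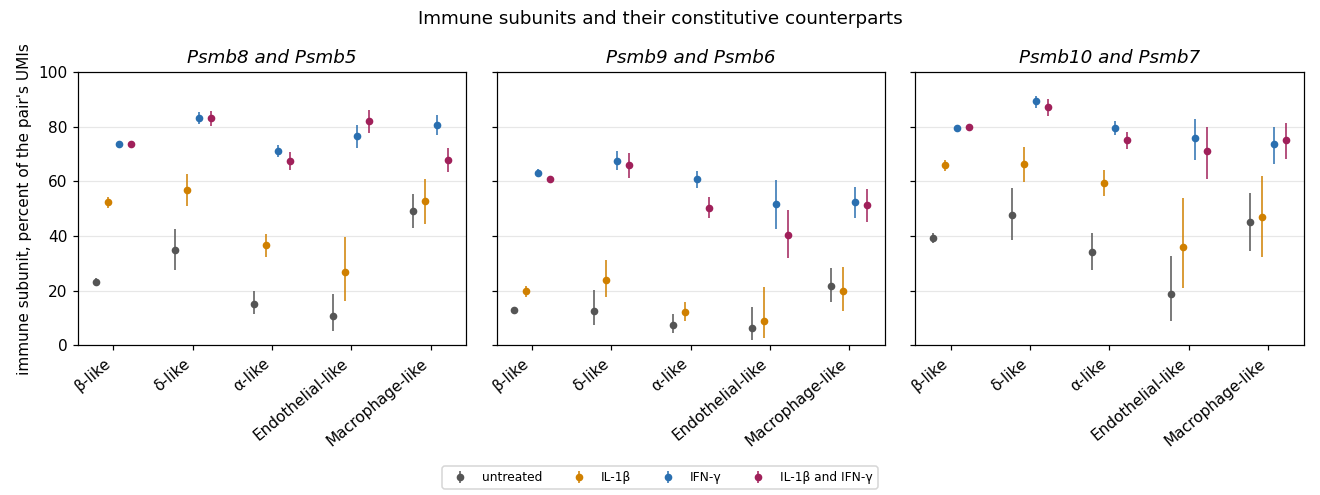
Share of the immune subunit in the UMIs of its pair (percent, 0 to 100) for Psmb8 with Psmb5, Psmb9 with Psmb6 and Psmb10 with Psmb7 in 5 cell classes; points are the libraries and bars exact binomial 95% intervals. In β-like cells the Psmb9 share stands at 19.7% for IL-1β and at 63.2% for IFN-γ.

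The other classes had fewer cells. In macrophage-like cells, which present antigen as part of their function, the set summed to 1557 CPM untreated, the highest untreated level of the 6 classes with at least 20 cells in every library, 1315 under IL-1β, 4166 under IFN-γ and 4669 under both. The untreated and IL-1β intervals overlapped. Psmb8 alone measured 453, 378, 1154 and 1136 CPM there. Endothelial-like cells measured 678 CPM untreated and 805 with IL-1β, whose intervals also overlapped, then 4946 with IFN-γ and 5799 with both.

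In PP-like cells, which make pancreatic polypeptide, the set summed to 563, 1147, 2665 and 3073 CPM. With IL-1β neither Psmb9 nor Tap1 had a UMI in the 31 PP-like cells, where 3 UMIs would be 13.2 CPM and the exact upper bound of a count of 0 is 16.3 CPM. Ductal-like cells measured 1171 CPM with IL-1β and 4953 with IFN-γ. In order of the untreated sums the classes ran from β-like through PP-like, endothelial-like, α-like and δ-like to macrophage-like, and neighbours whose intervals overlapped were β-like and PP-like, PP-like and endothelial-like, and endothelial-like and α-like cells. This order holds with hormone UMIs in the totals. With the hormone genes left out, the untreated sums were 682 CPM in endothelial-like, 845 in β-like, 950 in α-like, 1044 in PP-like, 1257 in δ-like and 1565 in macrophage-like cells.

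**Figure D4:**
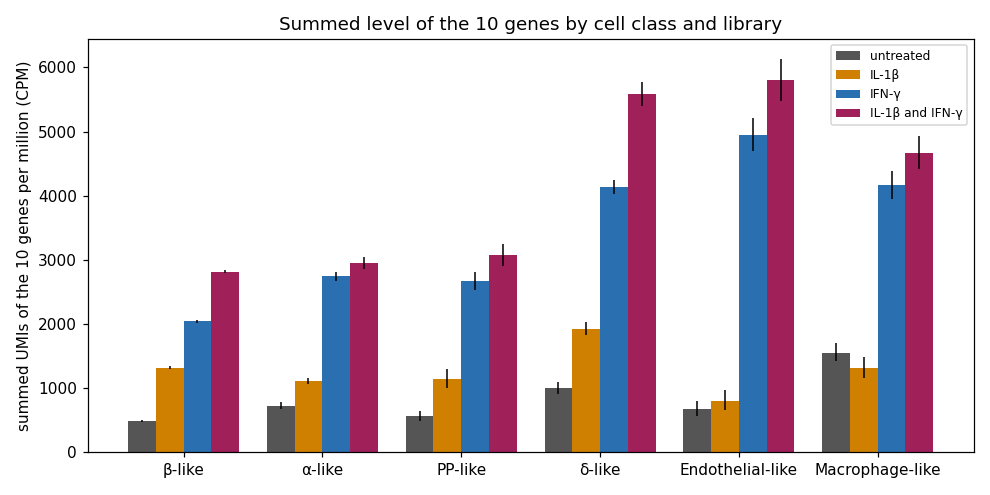
Summed level of the 10 genes in CPM (linear axis from 0) for 6 cell classes and 4 libraries; bars carry the 95% counting interval. IL-1β bars stand near the untreated ones in endothelial-like and macrophage-like cells and above them in the 4 endocrine classes.

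Within a library the cells of a class differed, and part of that spread is sampling. After thinning to 4000 UMIs the median number of the 10 genes with a UMI per β-like cell was 2 untreated, 4 under IL-1β, 5 under IFN-γ and 6 under both. None of the 10 had a UMI in 16.9% of untreated β-like cells, and in 1.53%, 1.67% and 0.879% of those under IL-1β, IFN-γ and the combination. At least 5 of the genes were seen in 2.53%, 26.1%, 63.1% and 81.9%. The summed UMIs per cell had a median of 11 and 5th and 95th percentiles of 3 and 20 with both cytokines, against a median of 2 and percentiles of 0 and 5 untreated.

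The order of the libraries differed between single genes. After thinning, Psmb8 had a UMI in 13.2%, 34.3%, 68.7% and 73.8% of β-like cells, where the unthinned shares were 42.4%, 56.7%, 87.0% and 92.2%, and Tap1 in 2.62%, 5.22%, 46.3% and 56.3% (7.42%, 11.5%, 73.9% and 86.0% unthinned). Psme2 had a UMI in 33.6%, 71.1%, 65.1% and 83.4%, with IL-1β above IFN-γ, and Erap1 in 13.9%, 25.8%, 31.8% and 25.2%. The median number of genes detected was 3, 4, 7 and 8 in δ-like and 2, 3, 6 and 6 in α-like cells.

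**Figure D5:**
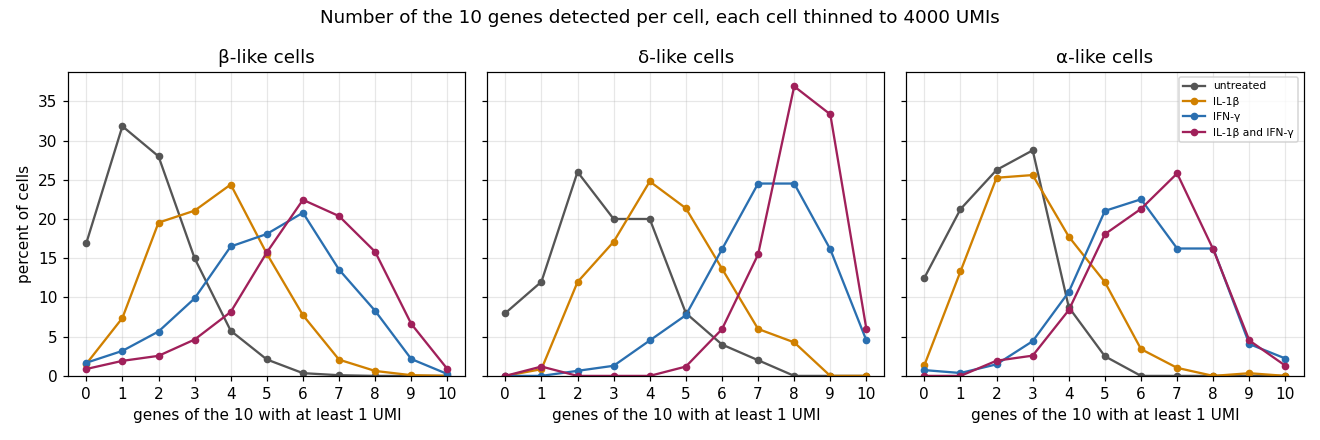
Distribution of cells by the number of the 10 genes with at least 1 UMI after thinning to 4000 UMIs, in percent of the cells of each library, for β-like, δ-like and α-like cells. In β-like cells the median runs from 2 genes untreated to 6 with both cytokines.

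In the combined library β-like cells with a Nos2 UMI (Nos2 encodes inducible nitric oxide synthase) numbered 908 and those without 377. The summed level of the set was 3035 CPM with and 2170 CPM without Nos2 (ratio 1.40 [1.37–1.43]), and for Erap1 the ratio was 1.14 [0.991–1.32]. The median depth was 12810 and 10483 UMIs, and the part of depth in the difference was not tested. With IL-1β alone the set stood at 1506 CPM in 338 cells with and 1228 CPM in 855 cells without Nos2. The 83 cells of the combined library with at least 10 Hspa1a UMIs per 10000 (Hspa1a encodes an inducible heat shock protein) held 1631 CPM, against 2895 CPM in the other 1202 (ratio 0.563 [0.535–0.593]). All of these groups were above the untreated sum of 488 CPM. The ratios between groups are not set beside those of all genes, so whether they are particular to the 10 genes was not tested.

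Of 32 other genes of class I antigen processing, 8 were at least 2-fold higher under IL-1β, 4 under IFN-γ and 8 under both in β-like cells (all genes 17.9%, 4.68% and 11.2%). With the hormone genes left out of the totals the counts were 1, 3 and 5 (all genes 6.97%, 2.65% and 8.24%), H2-K1 (1.55) and Irf1 (1.51) being among those lost with IL-1β and B2m (1.82) being the 1 lost with IFN-γ. With the hormone genes kept, the median ratio of the 32 with both was 1.62 beside 7.37 for the 10 genes. Irf1, a transcription factor that acts on genes of this route, measured 19.8, 40.6, 207 and 333 CPM. Nlrc5, the activator of class I genes, had 4 UMIs in untreated β-like cells (0.199 CPM) and measured 2.18, 20.4 and 25.9 CPM under IL-1β, IFN-γ and the combination.

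Among the class I molecules B2m, the shared light chain, measured 198, 322, 447 and 740 CPM, and H2-D1 296, 545, 427 and 675 CPM, which is 3.74-fold and 2.28-fold higher with both. H2-K1 measured 633, 1332, 932 and 1205 CPM, highest with IL-1β alone, but with the hormone genes left out of the totals it was higher under both (1812 CPM) than under IL-1β (1706 CPM). Of the 14 genes of the constitutive core particle, 2 passed 2-fold under IL-1β, Psma6 (2.66) and Psma1 (2.01), none under IFN-γ and 2 under both, Psma6 (2.44) and Psma7 (2.02), where 17.9%, 4.68% and 11.2% of all genes did. Of the 6 peptidases, Npepps (2.03) and Tpp2 (2.09) passed under IL-1β, none under IFN-γ and Lap3, a cytosolic aminopeptidase, under both (2.06). Psma1, Npepps and Tpp2 were named after their values were seen. With the hormone genes left out of the totals, these 6 genes were all under 2-fold except Psma6 with both (2.12), and H2-D1 with both was 1.98. In δ-like cells 2, 4 and 9 of the 32 and in α-like cells 1, 5 and 5 were at least 2-fold higher under IL-1β, IFN-γ and the combination, beside the shares of all genes given above (11.5%, 6.06% and 12.2% in δ-like and 8.3%, 5.55% and 9.57% in α-like cells).

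The genes whose levels were most like the mean of the set over 12 levels (3 endocrine classes in 4 libraries) were, of 8150 genes compared, Zbp1, Vwa5a, Xaf1, Ube2l6, Rnf213, Herc6, Parp9, Gbp3, Gdap10 and Trafd1, with Pearson's r from 0.983 to 0.964 on log2(CPM + 1). The 12 levels share their 4 libraries and are not independent. Herc6 measured 5.93, 42.1, 110 and 159 CPM in β-like cells and Gbp3 2.19, 63.9, 171 and 452 CPM.

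Markers of other cell types were measured in the endocrine classes. In β-like cells 9, 7, 10 and 8 of the 11 macrophage markers had a UMI, with a summed level of 74.0 CPM untreated, 51.1 under IL-1β, 48.0 under IFN-γ and 147 under both, of which C1qa made up 69.3, 36.0, 39.9 and 136 CPM. Adgre1 was at 0 in all 4 libraries. In macrophage-like cells the same markers summed to between 21925 and 30801 CPM, and C1qb, present in every macrophage-like cell, had a UMI in 0.32% of β-like cells. In δ-like cells the macrophage markers summed to 101, 31.7, 69.4 and 100.03 CPM and in α-like cells to 53.1, 18.3, 26.2 and 56.4 CPM, C1qb being at 0 in all α-like libraries, and their part in the levels of the set was not tested. The endothelial markers summed to between 3.46 and 6.67 CPM in β-like cells. From the hormones found in cells of other types, RNA free in the suspension could give at most 19.8, 17.7, 32.4 and 57.9 CPM of the set in β-like cells, beside measured sums of 488, 1317, 2045 and 2819 CPM. No islet cell type is known to lack these genes, so the share of cells that carry only free RNA was not measured.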

How the data were processed

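Counts of UMIs per gene and cell were deposited as the authors made them with Cell Ranger, without normalization. The submitters' processing notes name the build mm10, and the matrix headers give version 3.0.0. The annotation behind the counts was not given in the sources used here, and the reagent kit is version 2 in the labels and version 3 in the paper. The 10 genes, the other gene lists and the cell limits were chosen with earlier results of these data known.

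Kept were cells of 200 to 4000 genes with no more than 12% mitochondrial UMIs. Scripts ran in Python 3.11.15 with pandas 2.3.3, scipy 1.17.1 and numpy 2.4.6. A cell was endocrine when 1 hormone (Ins1 with Ins2, Gcg, Sst or Ppy) took at least 2% of its UMIs and every other under 20% of that one, with Ppy allowed in δ-like cells. There were 183 cells with a leading share of 1 to 3% and 96 with another hormone at 15 to 25%. The design had named Ppy with Pyy for PP-like cells, but Pyy had a UMI in 38.9% of β-like cells, so Ppy was used alone and the pair became an alternative added after the data were seen. Other classes needed 3 detected markers with no tie. Doublets were not removed, and Scrublet in scanpy 1.11.5 called 106 (1.42%) in an alternative.

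UMIs of a gene were summed over the cells of a class and divided by the class total (CPM), with exact Poisson intervals, exact conditional binomial intervals for ratios and exact binomial intervals for shares of cells or of pairs. No test was made, since each condition has 1 library. All 10 genes were named. Of the 32 listed pathway genes, those at least 2-fold higher or lower with both cytokines in β-like cells were named, except 1 whose values are not reported here, with Psmb5, Psmb6 and Psmb7. H2-K1, Psma1, Npepps and Tpp2 were named after their values were seen. Of the 32, 1 was found by a synonym (Nrd1 for Nrdc). The 10 genes most like the set were taken by correlation among genes of at least 10 CPM. Scripts were tested on simulated data. Clustering used igraph 0.11.9 and scikit-learn 1.9.0, and plots matplotlib 3.10.9.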

Additional observations from a re-analysis of the deposited data

Results flagged for a closer look

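Tap1 with IL-1β alone differed in direction between endocrine classes. Its ratio to the untreated library was 3.20 in β-like cells and 3.53 in δ-like cells (counting interval 1.03 to 18.7, from 3 untreated UMIs) but 0.713 in α-like cells, where the counting interval of 0.381 to 1.38 includes 1. The difference between the classes was not tested, since each condition has 1 library. Of the 17 Tap1 UMIs in untreated α-like cells 5 came from 1 cell, and without that cell the untreated level was 13.8 CPM beside 13.7 CPM with IL-1β. When Pyy was counted with Ppy as a PP hormone the α-like ratio was 1.22 and the δ-like one 1.71. The α-like ratio was 0.377 when every cell counted equally, and the β-like ratio was 2.03 after thinning to 4000 UMIs.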

How the results depend on the processing

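No paired analysis was possible because each condition has 1 library. Of 810 ratios of the 10 genes, recomputed under 9 alternatives, none at least 2-fold from untreated changed direction, 30 crossed the 2-fold limit and 746 stayed within their counting interval. The count of genes at least 2-fold higher stayed within 1.5 times in 93 of 99 recomputations. With IL-1β it was 3, 3, 2 and 7 in δ-like cells (5 as reported) with no upper gene limit, thinned cells, Louvain clusters and Pyy counted beside Ppy, and 2, 1 and 6 in α-like cells (0 as reported) with thinned cells, the mean over cells and a 1.5-fold limit. Erap1 with both cytokines in β-like cells was 1.98 after thinning and 1.87 with hormone genes left out of the totals, both under 2-fold. Tapbp with IL-1β in β-like cells was 2.01 after thinning and 2.01 with cells of high Hspa1a left out. The count there was then 9 (8 as reported). With hormone genes left out, the share of all genes at least 2-fold higher in β-like cells was 6.97% with IL-1β and 2.65% with IFN-γ.

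At a 1.5-fold limit that share was 40.5%, 20.3% and 22.2% in β-like cells with IL-1β, IFN-γ and both, 22.5%, 13.5% and 20.2% in δ-like and 17.5%, 15.5% and 16.7% in α-like cells. Without a minimum CPM it was 14.3% and 17% in β-like cells with IFN-γ and both, 17.6% and 18.3% in δ-like cells with IL-1β and IFN-γ, and 18.0%, 17.5% and 15.4% in α-like cells with IL-1β, IFN-γ and both. With IFN-γ it was also 3.95% with no upper gene limit, 10.5% after thinning and 11.5% with Pyy counted beside Ppy in δ-like cells, and 10.7% after thinning in α-like cells. After thinning, Tap2 in α-like cells had ratios of 8.56 with IFN-γ and 12.6 with both, Psmb9 20.2 and 21.2, and Erap1 2.24 with both, from 80 untreated cells. With every cell counted equally, Tap1 in α-like cells had 6.51 and 7.48 and Tapbpl in δ-like cells 3.14 with IFN-γ (3.21 with no upper gene limit). With Pyy counted beside Ppy, Tap1 was 16.2 and 20.9 in α-like cells with IFN-γ and both, and 17.3 and 33.5 in δ-like cells. The causes were not tested.

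The untreated cells were the deepest and the upper gene limit removed more of them than of the others, and the 54 untreated δ-like and 89 untreated α-like cells limit every ratio in those classes.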
